A study of Mus musculus with 18 samples.

Results

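Potassium channel genes were followed across the cell types of the mouse hippocampus (Hip) and prefrontal cortex (PFC). They were taken by name, as every gene whose symbol begins with Kcn followed by letters and a number, which gave 98 of the 30905 genes of the count tables. The 98 genes comprised 15 inward rectifiers (Kir), 14 K2P channels, which carry a pair of pore domains, 8 Kv1, 2 Kv2, 4 Kv3, 3 Kv4 and 5 Kv7 subunits. They also held 8 channels of the ether-a-go-go family (Kv10 to Kv12), 10 electrically silent Kv subunits and 5 noncoding RNAs. A further 8 were grouped as calcium- or sodium-activated channels, where Kcnu1 was placed by its symbol and not by its gating. The auxiliary subunits were 3 Kv beta, 4 KChIP, 4 BK beta and 5 KCNE. Single-nucleus RNA of both regions of the same 9 male mice was sequenced as 18 droplet-based libraries, 1 per mouse and region. Germ-free (GF) mice (n = 3) had no microbiota, specific pathogen-free (SPF) mice (n = 3) carried a conventional one, and colonized germ-free (CGF) mice (n = 3) were born germ-free and were colonized by keeping them together with SPF mice. All mice were of the outbred Kun Ming stock and were 8 weeks old, and GF and CGF mice lived in isolators, so that group and housing cannot be told apart in the comparisons with SPF mice. The comparisons ask in which cell types each channel was expressed, and which channels differed with the microbiota and between the 2 regions.

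Potassium channels let potassium leave or enter a cell along its gradient, and so set the resting potential, shape and end the action potential, and buffer potassium around active neurons. Kv channels open on depolarization, calcium- and sodium-activated channels couple the membrane to the ions that entered before, and K2P and Kir channels carry the background current. In the brain some subunits are textbook marks of cell types: Kv3 channels allow fast spiking of Pvalb interneurons, Kir4.1 with Kir5.1 clears potassium in astrocytes, THIK-1 sets the resting potential of microglia, and Kir6.1 forms the ATP-sensitive channel of pericytes and smooth muscle.

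Counts of unique molecular identifiers (UMIs) were added up for each mouse and cell type, and a level is given as CPM, the UMIs of a gene out of 1000000 UMIs of that sum. Levels are compared between cell types for the same gene and not between genes, since CPM is not scaled to gene length. The median nucleus of a Hip library carried between 4678 and 5905 UMIs where the mouse was GF. For SPF mice this median lay higher, between 6172.5 and 7087, without overlap. The CGF medians, between 5460 and 7579, overlapped both. Depth per nucleus and group therefore cannot be told apart in the Hip comparison of GF with SPF mice. Libraries held 49067853 to 63217083 UMIs in Hip. In PFC they held 59126586 to 71463928 UMIs in GF mice against 20336250 to 26949210 in SPF mice and 22213863 to 26151503 in CGF mice, so that depth and the GF group cannot be told apart in PFC. Cell types were gated by marker genes that include no potassium channel, and 81 of 91 tests of further markers placed the marker highest in its own type. Microglia carried Csf1r, Ctss and C1qa. Mural cells, the pericytes and smooth muscle cells, were few, with 11 to 65 nuclei per mouse in Hip and 37 to 82 in PFC. Markers of excitatory neurons were counted in glia as well: the summed level of 7 such markers in Hip astrocytes, oligodendrocytes and microglia was 23.5 to 47.2% of that in excitatory neurons. The highest of them, Nrgn, stood at 174, 220 and 279% of its level in excitatory neurons in these types. A level above that of excitatory neurons therefore does not by itself mark a gene as glial. Pairs of libraries shared 6 to 29 barcodes, at most 0.362% of the smaller library. All cell types of a region came from the same libraries and are not independent of one another.

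The levels described here turn on a few genes with a level concentrated in 1 or a few cell types. For Kcnj8, Kcnj10, Kcnj16, Kcnh8, Kcnc1 and Kcnk13 a start site was found in RefSeq, and the 250 bases before it are printed so that these windows can be compared (build GRCm38.p6, 5′ to 3′ on the strand of the gene). Capitals mark a GC box (GGGCGG, or CCGCCC on the other strand) and the core bound by the myeloid factor PU.1 (GAGGAA or TTCCTC). Kcnk6 is named only.
Kcnj8, chr6:142571615-142571864, minus strand: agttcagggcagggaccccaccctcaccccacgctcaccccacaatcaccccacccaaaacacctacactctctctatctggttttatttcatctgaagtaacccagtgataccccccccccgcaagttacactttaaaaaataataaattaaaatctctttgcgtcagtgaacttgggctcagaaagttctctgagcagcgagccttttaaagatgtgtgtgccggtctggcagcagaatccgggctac
Kcnj10, chr1:172340960-172341209, plus strand: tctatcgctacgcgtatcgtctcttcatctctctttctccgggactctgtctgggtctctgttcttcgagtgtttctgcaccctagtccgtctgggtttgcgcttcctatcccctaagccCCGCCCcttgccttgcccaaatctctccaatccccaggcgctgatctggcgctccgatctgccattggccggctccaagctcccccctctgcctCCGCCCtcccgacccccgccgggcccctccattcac
Kcnj16, chr11:110967783-110968032, plus strand: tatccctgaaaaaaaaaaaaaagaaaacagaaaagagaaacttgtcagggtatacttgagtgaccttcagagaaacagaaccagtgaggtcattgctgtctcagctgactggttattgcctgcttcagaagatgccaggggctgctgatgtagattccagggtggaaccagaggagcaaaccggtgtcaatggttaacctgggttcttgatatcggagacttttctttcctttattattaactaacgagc
Kcnh8, chr17:52602459-52602708, plus strand: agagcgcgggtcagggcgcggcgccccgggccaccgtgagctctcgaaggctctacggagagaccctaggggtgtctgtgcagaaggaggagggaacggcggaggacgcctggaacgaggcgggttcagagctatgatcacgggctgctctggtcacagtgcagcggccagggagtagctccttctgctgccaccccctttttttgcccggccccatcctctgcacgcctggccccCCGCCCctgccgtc
Kcnc1, chr7:46396218-46396467, plus strand: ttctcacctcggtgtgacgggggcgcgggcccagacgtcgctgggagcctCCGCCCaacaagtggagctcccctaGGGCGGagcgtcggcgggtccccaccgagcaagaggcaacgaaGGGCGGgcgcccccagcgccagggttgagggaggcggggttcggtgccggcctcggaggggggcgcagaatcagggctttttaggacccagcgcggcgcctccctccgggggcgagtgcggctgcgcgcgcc
Kcnk13, chr12:99964249-99964498, plus strand: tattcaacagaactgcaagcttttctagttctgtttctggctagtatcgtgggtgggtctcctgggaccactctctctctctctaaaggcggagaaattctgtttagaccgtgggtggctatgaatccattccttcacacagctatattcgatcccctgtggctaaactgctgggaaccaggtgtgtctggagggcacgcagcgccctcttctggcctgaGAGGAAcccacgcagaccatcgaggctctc

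The windows before Kcnc1 and Kcnh8 were rich in G and C (74.4 and 68.4%, with 30 and 20 CpG dinucleotides), and those before Kcnj16 and Kcnj8 were poor (42.8 and 49.2%, with 3 and 6). Kcnc1 held 3 GC boxes, Kcnj10 held 2 and Kcnh8 held 1, and Kcnk13 held 1 GAGGAA. Of the 98 genes, 71 had a window, and motifs were searched on both strands. A GC box was in 33 of these 71 (46.5%), against 32.7% of all 32851 windows. GAGGAA was in 19 (26.8%) against 23.3% of all windows. The TATA box TATAAA was in 2 (2.82%) against 12.4%, and the SOX core ACAATG in 4 (5.63%) against 10.7%. The 6 printed windows held neither TATAAA nor ACAATG. The median share of G and C was 60.0% in the windows of the channel genes and 52.4% in all windows. These letter matches are a description and not sites of binding.

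Of the 98 genes, 97 had at least 1 UMI in Hip and 98 in PFC, and the gene without UMIs in Hip was Kcnj1, a renal channel with 2 UMIs in PFC. Levels were ranked over the 14 cell types of Hip and the 16 of PFC with at least 10 nuclei in every mouse. In Hip, 19 genes were highest in the same cell type in all 9 mice, and for 11 of them every mouse's value there exceeded every value in any other type. In PFC the numbers were 26 and 10. Of the 97 genes with UMIs in both regions, 27 had the same leading type in both and 74 led in neurons of both or in other cells of both, while 10 types were ranked in both regions. The genes separate from all other types in the same type of both regions were Kcnc1 in Pvalb interneurons, Kcnh8 in oligodendrocyte precursor cells (OPCs) and Kcnk6 in microglia. Gene positions are from GENCODE vM21 on GRCm38. Since CPM is a share of the UMIs of a type, a lower level cannot be told apart from more RNA of other genes in that type.

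**Figure D1:**
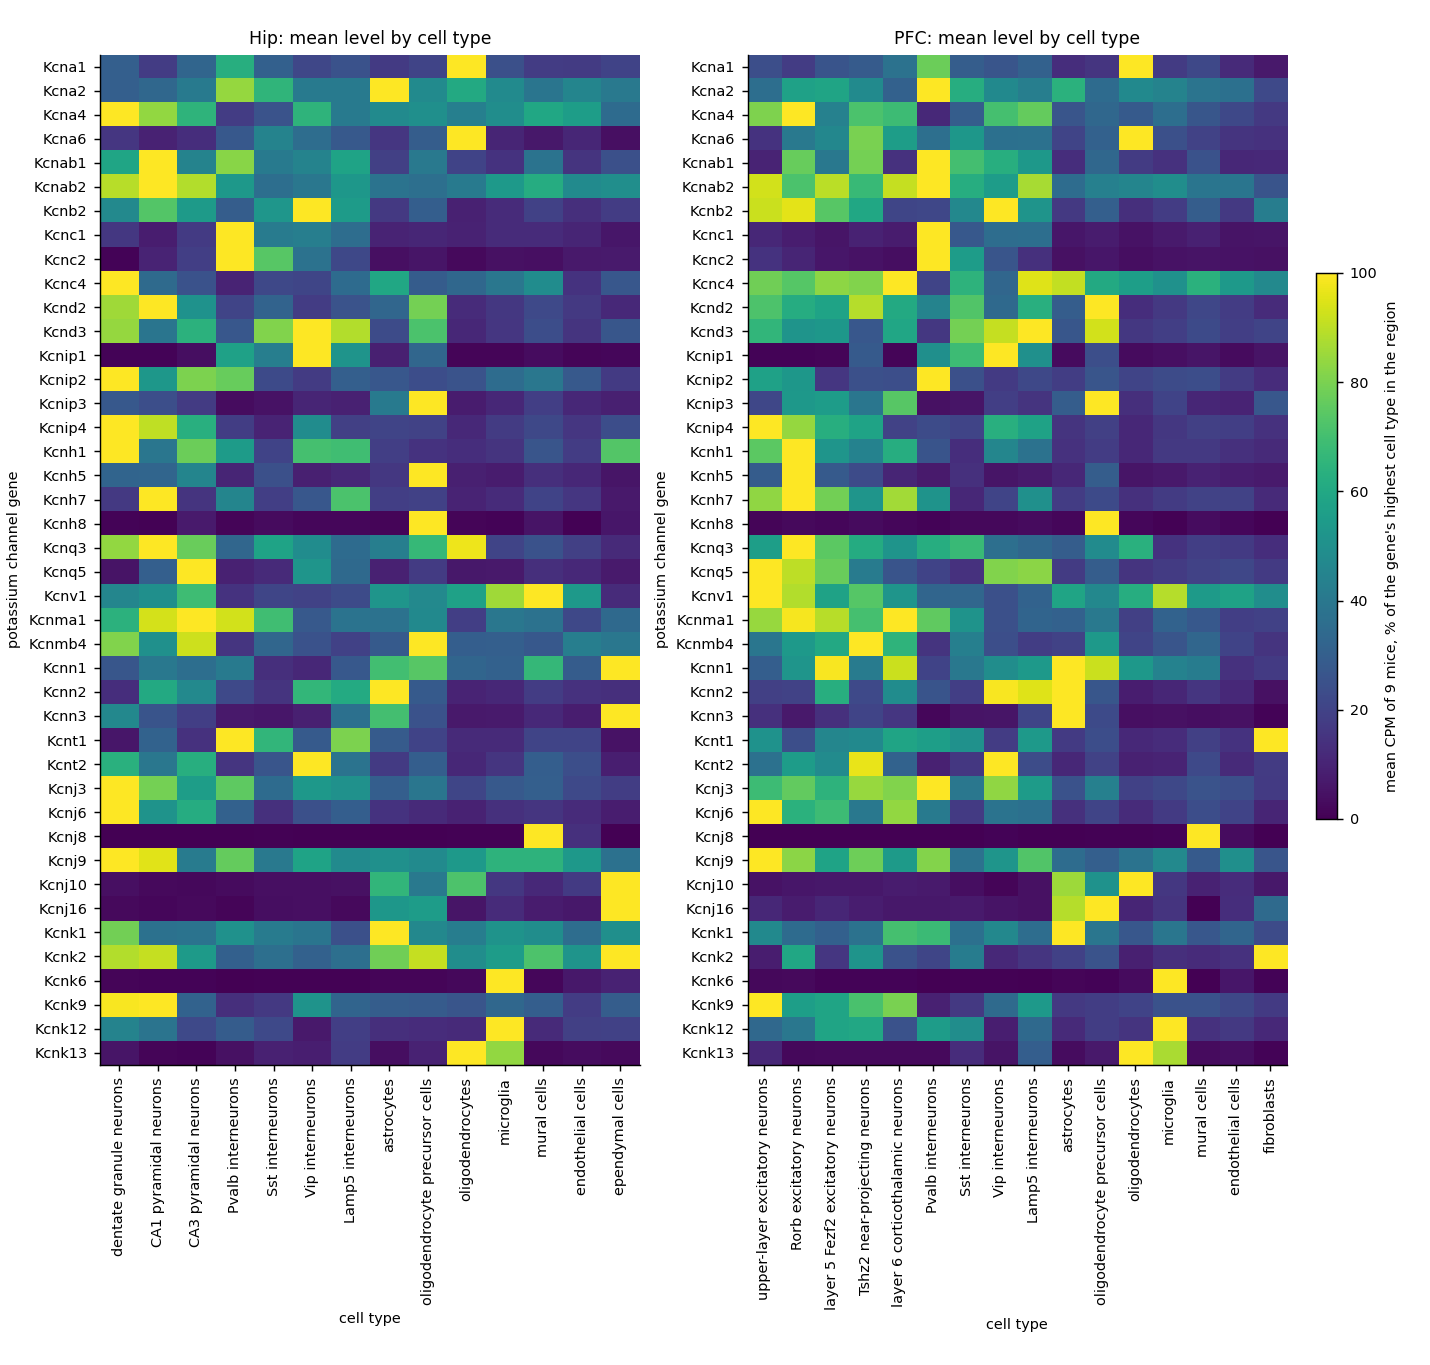
Mean level of 42 potassium channel genes (rows, in order of subfamily) in the ranked cell types (columns) of Hip (left, 14 types) and PFC (right, 16 types), as a percentage of the mean CPM in the gene's highest type, over 9 mice. Kcnj8 stands out in mural cells, Kcnk6 in microglia, Kcnh8 in OPCs and Kcnc1 in Pvalb interneurons in both maps, while Kcnma1 spreads over neurons. Kcnd2 and Kcnq3 are high in neurons and also in OPCs of PFC (Kcnd2) and in oligodendrocytes of Hip (Kcnq3, at a mean of 1146 CPM against 1176 CPM in CA1 pyramidal neurons).

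Among the inward rectifiers, Kcnj8 (Kir6.1, chr6:142564837-142571614) was highest in mural cells. It reached 18.1 to 373 CPM (median 68.3) in mural cells of Hip and 33.7 to 264 CPM (median 93.6) in those of PFC. The next type in PFC, endothelial cells, stayed at a mean of 3.53 CPM, and no value of another type there reached the lowest mural value. In Hip, with fewer mural nuclei, the lowest mural value fell within the range of other types. Kcnj10 (Kir4.1, chr1:172341210-172374085), the main glial inward rectifier, was shared by several glial types. In Hip astrocytes it measured 52.0 to 87.4 CPM (median 71.5) and in oligodendrocytes 55.5 to 109 CPM (median 77.4). OPCs measured 31.6 to 56.2 CPM (median 41.0), against 1.90 to 6.25 CPM (median 2.86) in excitatory neurons. Ependymal cells of Hip had the highest mean of Kcnj10, at 109 CPM, with values of 37.1 to 185 CPM that overlapped those of both types. The values of astrocytes and oligodendrocytes overlapped, and both lay above all values of excitatory neurons. In PFC the means of Kcnj10 were 68.0 CPM in astrocytes, 79.6 CPM in oligodendrocytes and 40.6 CPM in OPCs. Kcnj16 (Kir5.1), which joins Kir4.1 in mixed channels, averaged 21.9 CPM in astrocytes and 23.0 CPM in OPCs of Hip, against 2.31 CPM in oligodendrocytes. Its highest mean in Hip, 41.5 CPM, was in ependymal cells as well. Kcnj16 was thus low in the oligodendrocytes that carried Kcnj10. Its PFC means were 19.8, 22.2 and 2.34 CPM in the same order of types.

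Of the G protein-gated inward rectifiers (GIRK), which slow neurons on the arrival of inhibitory transmitters, Kcnj3, Kcnj6 and Kcnj9 were highest in neurons, while Kcnj5 (GIRK4) held 32 UMIs in Hip and 27 in PFC and had its highest mean in mural cells. Kcnj6 (GIRK2) measured 589.5 to 758 CPM (median 664) in dentate granule neurons, above every value of any other type of Hip. CA3 pyramidal neurons were next for Kcnj6 at a mean of 419 CPM. Kcnj3 (GIRK1) led in the same granule neurons at a mean of 778 CPM in 9 of 9 mice, with CA1 pyramidal neurons at 616 CPM. The granule cell layer was thus the leading site of both genes. Kcnj9 (GIRK3) averaged 47.0 CPM in dentate granule neurons and 44.9 CPM in CA1 pyramidal neurons. In PFC, Kcnj6 averaged 437 CPM in upper-layer excitatory neurons and 366 CPM in layer 6 corticothalamic neurons.

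The K2P channels had their highest levels in different types. Kcnk6 (TWIK-2), a channel through which potassium leaves macrophages, gave 29.4 to 59.0 CPM (median 42.2) in Hip microglia and 13.1 to 76.6 CPM (median 52.1) in PFC microglia. Within each region, no mouse reached the lowest microglial value of that region in any other type. Kcnk13 (THIK-1, chr12:99964499-100062682) was not limited to microglia. It measured 179.6 to 269.9 CPM (median 209) in Hip microglia and 201 to 361 CPM (median 263) in oligodendrocytes. In PFC it measured 92.2 to 258 CPM (median 176) in microglia and 169.5 to 296 CPM (median 222) in oligodendrocytes. The ranges of the 2 types overlapped in both regions. Kcnk12 (THIK-2), its close relative, was highest in Hip microglia at 51.1 to 114 CPM (median 73.8), above every other value, with dentate granule neurons next at a mean of 32.8 CPM. The excitatory marker Nrgn was higher in Hip microglia as well, at 880 CPM against 318 CPM in excitatory neurons. In PFC microglia Kcnk12 was not above excitatory neurons in all 9 mice. The part of RNA from neurons in its microglial level was not tested. Kcnk1 (TWIK-1), which adds to the passive conductance of astrocytes, averaged 81.9 CPM in Hip and 89.8 CPM in PFC astrocytes. Kcnk2 (TREK-1), a mechanosensitive channel, was highest in PFC in fibroblasts at a mean of 506 CPM. Kcnk10 (TREK-2) led in OPCs of both regions, at means of 169 CPM in Hip and 210.4 CPM in PFC, and in PFC every OPC value lay above all other types. Kcnk9 (TASK-3), an acid-sensitive channel, led in PFC upper-layer neurons at 132 CPM in 9 of 9 mice.

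**Figure D2:**
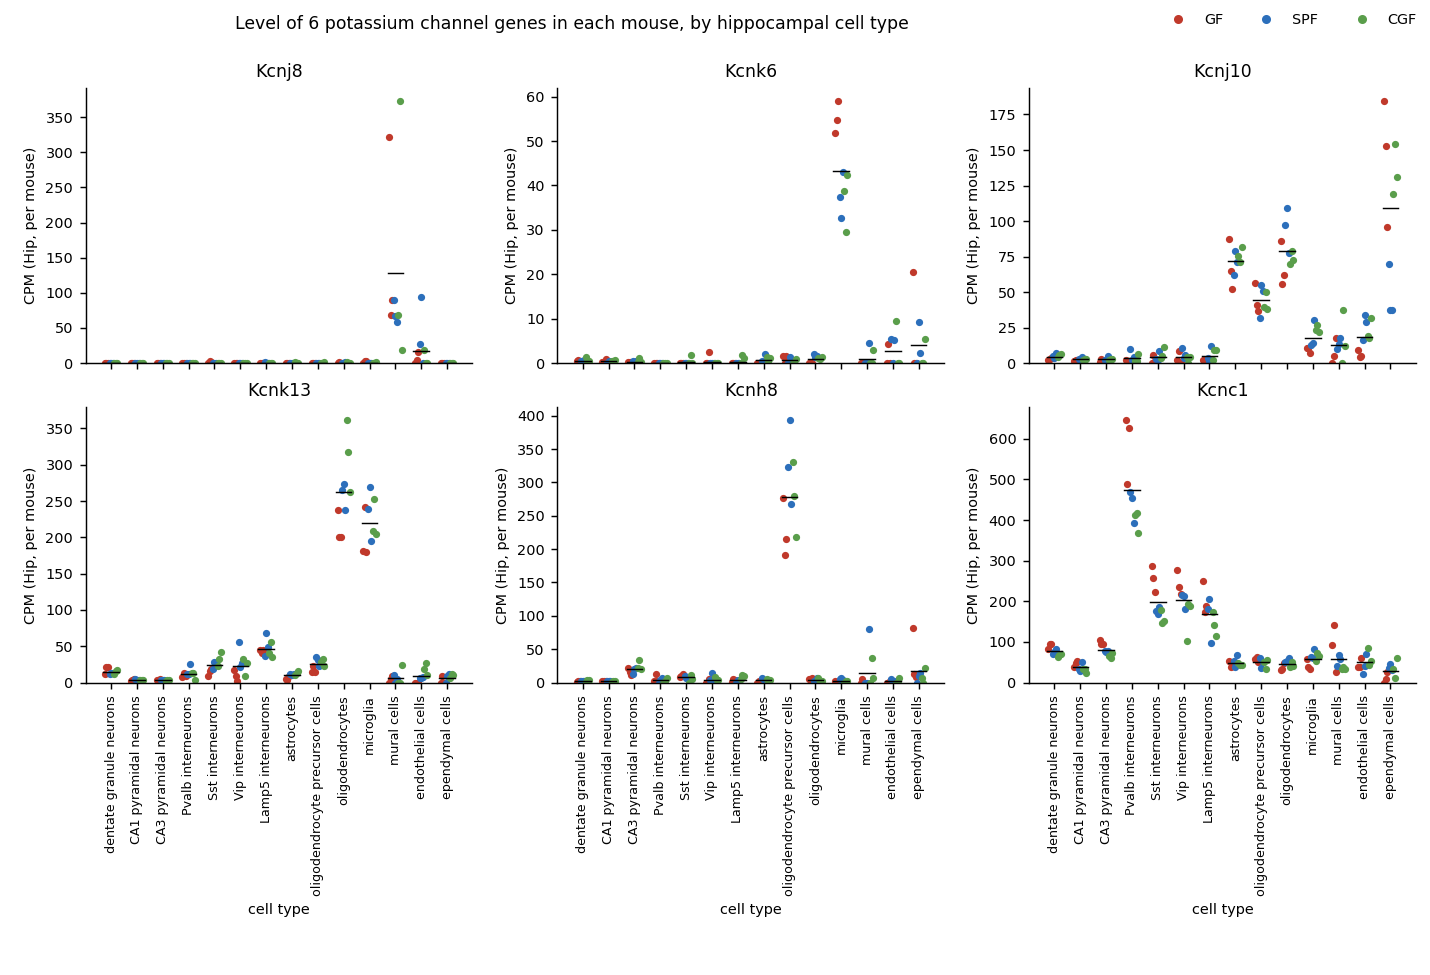
Level (CPM, linear axes starting at 0) of Kcnj8, Kcnk6, Kcnj10, Kcnk13, Kcnh8 and Kcnc1 in the Hip cell types, with 1 point per mouse (GF red, SPF blue, CGF green) and the mean of 9 mice as a bar. Mural cells lead for Kcnj8, microglia for Kcnk6, OPCs for Kcnh8 and Pvalb interneurons for Kcnc1, while oligodendrocytes and microglia overlap for Kcnk13.

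Of the Kv1 subunits, which open near threshold in axons, Kcna1 (Kv1.1) and Kcna6 (Kv1.6) were highest in oligodendrocytes. Kcna1 measured 189 to 241 CPM (median 231) there in Hip, with Pvalb interneurons at a mean of 139 CPM. In PFC oligodendrocytes Kcna1 averaged 158 CPM and led in 9 of 9 mice. Kcna6 measured 83.4 to 177 CPM (median 139) in Hip oligodendrocytes and averaged 165 CPM in those of PFC. The other Kv1 genes had their highest levels elsewhere. Kcna2 (Kv1.2) averaged 123 CPM in PFC Pvalb interneurons and 78.5 CPM in astrocytes. Kcna4 (Kv1.4), which inactivates, averaged 28.4 CPM in CA1 pyramidal neurons and 33.8 CPM in dentate granule neurons. Kcna3 (Kv1.3), known from lymphocytes and activated microglia, had no UMI among the 4080176 UMIs of Hip microglia, which allows a level of up to 0.735 CPM by the limit of 3 counts. All 3 beta subunits, which attach to Kv1 channels, had their highest mean of PFC in Pvalb interneurons. Kcnab1 led in CA1 pyramidal neurons of Hip at a mean of 818 CPM. Kcnab3 averaged 37.2 CPM in PFC Pvalb interneurons against 10.6 CPM in Sst interneurons. Kcnab2 averaged 106 CPM in CA1 pyramidal neurons of Hip and 109 CPM in PFC Pvalb interneurons.

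Kv3 channels repolarize fast spikes, and Kcnc1 and Kcnc2 were highest in Pvalb interneurons. Kcnc1 (Kv3.1) reached 369 to 646 CPM (median 455) in Hip Pvalb interneurons and 589.9 to 1182 CPM (median 964) in those of PFC, above every value of other types in each region. Kcnc2 (Kv3.2) was also highest there, at means of 3112 and 2512 CPM. In PFC no other type reached the lowest Pvalb value of Kcnc2. Kcnc4 (Kv3.4) averaged 46.1 CPM in dentate granule neurons against 15.98 CPM in CA1 pyramidal neurons. Kcnb2 (Kv2.2), a slow delayed rectifier, had its highest mean in Vip interneurons in both regions, at 1386 and 1119 CPM.

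Kv4 channels carry the A-type current of dendrites, with KChIP proteins bound to them. Kcnd2 (Kv4.2) measured 3591 to 7154 CPM (median 5245) in CA1 pyramidal neurons, highest in 9 of 9 mice, with dentate granule neurons at a mean of 4610 CPM. In PFC its highest mean, 2464 CPM, was in OPCs. Kcnd3 (Kv4.3) averaged 373 CPM in Sst and 76.6 CPM in Pvalb interneurons of PFC. Kcnip1 led in Vip interneurons of both regions, at 928 and 1291 CPM. Kcnip2 led in dentate granule neurons of Hip at 158 CPM and in PFC Pvalb interneurons at 213 CPM, and Kcnip3 in OPCs of both regions at 313 and 289 CPM. Kcnip4 had its highest means in dentate granule neurons of Hip at 11710 CPM and in upper-layer neurons of PFC at 9024 CPM.

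Of the Kv7 channels, which carry the M-current that muscarinic receptors close, Kcnq5 measured 2931 to 5268 CPM (median 4515) in CA3 pyramidal neurons, above every other type of Hip. Kcnq3 measured 1161 to 1504 CPM (median 1367) in Rorb neurons of PFC, likewise above every other type there. In the ether-a-go-go family (EAG, ERG and ELK channels), Kcnh8 (Kv12.1, chr17:52602709-52979194) stood apart in OPCs. It measured 192 to 393 CPM (median 276) in OPCs of Hip and 167 to 329.8 CPM (median 206) in those of PFC. The next means were 19.7 CPM in CA3 pyramidal neurons of Hip and 8.21 CPM in mural cells of PFC. Kcnh5 (Kv10.2) had another leading type in each region, where Rorb neurons were gated in PFC only. It measured 140.2 to 195 CPM with a median of 154 in OPCs of Hip and 431 to 615 CPM with a median of 482 in Rorb neurons of PFC, each above every other type of its region. OPCs of PFC were next at a mean of 151 CPM, near the mean of 159 CPM in OPCs of Hip. Kcnh7 (Kv11.3), an ERG channel, led in CA1 pyramidal neurons at 1862 CPM and in Rorb neurons at 1962 CPM. Kcnh1 (Kv10.1) averaged 580.0 CPM in Rorb neurons of PFC.

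Among the calcium- and sodium-activated channels, Kcnma1, the pore of the large-conductance BK channel, averaged 1735 CPM in CA3 pyramidal and 2120 CPM in layer 6 corticothalamic neurons. Its neuronal beta subunit Kcnmb4 led in PFC Tshz2 near-projecting neurons at 135 CPM in 9 of 9 mice. The small-conductance SK channels Kcnn2 and Kcnn3 were high in astrocytes. Kcnn2 averaged 768 CPM in Hip and 555 CPM in PFC astrocytes. Kcnn3 measured 119.6 to 219.8 CPM (median 149.6) in PFC astrocytes, above every other type, and averaged 113 CPM in Hip astrocytes beside 161 CPM in ependymal cells. Kcnn1 averaged 9.83 CPM in layer 6 corticothalamic neurons. Kcnn4, the intermediate-conductance channel known from activated microglia, averaged 1.33 CPM in Hip microglia against 24.4 CPM in ependymal cells. Of the sodium-activated channels, Kcnt1 (Slack) was highest in PFC fibroblasts at 274 CPM and Kcnt2 (Slick) in Vip interneurons of both regions at 692 and 704 CPM. Silent subunits form channels only together with other Kv subunits, chiefly Kv2. Kcng1 measured 31.9 to 50.2 CPM (median 42.3) in dentate granule neurons and 42.4 to 55.2 CPM (median 49.2) in layer 5 Fezf2 neurons, and Kcng2 measured 54.6 to 86.0 CPM (median 62.2) in dentate granule neurons. Each of these values lay above every other type of its region.

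Over the 30 cell types of both regions, the channel genes with mean levels most like those of Kcnj10 by Spearman's rank correlation were Kcnj16 (0.732), Kcne1l (0.646) and Kcnk6 (0.632). For Kcnj8 they were Kcne4 (0.496), Kcnf1 (0.382) and Kcnj15 (0.364), and for Kcnc1 they were Kcnk3 (0.683), Kcnh6 (0.651) and Kcnip1 (0.648). The types of a region share libraries, and low genes such as Kcne4 hold few UMIs, so that these values are a description.

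Neighbouring neuron types were compared over the 9 mice with edgeR's quasi-likelihood test on all genes, and p-values were adjusted by Benjamini-Hochberg over all genes. Between dentate granule and CA1 pyramidal neurons, 27 of 70 channel genes tested were higher in granule neurons and 21 were lower, against 30.1 and 24.9% of all genes. The median log2 fold change was 0.15 for channels and 0.06 for all genes. The silent subunit Kcng3 measured 20.3 to 65.0 CPM (median 42.4) in granule and 1.44 to 13.6 CPM (median 9.25) in CA1 neurons (log2 fold change 2.23, SE 0.146, adjusted p = 2.94e-11). Kcnk13 (1.98), Kcng2 (1.94), Kcnc4 (1.48) and Kcng1 (1.41) followed in log2 fold change. Kcng1, Kcng2 and Kcng3 are silent subunits, as is Kcns3, which lay on the other side. There, the fast Kv3 subunit Kcnc2 measured 10.8 to 48.8 CPM (median 34.5) in granule and 243 to 414 CPM (median 304) in CA1 neurons (log2 fold change -3.42, SE 0.138, adjusted p = 8.14e-15). Kcns3 (-2.96), Kcnh7 (-2.63), Kcnq5 (-2.62) and Kcnt1 (-2.42) were lower in granule neurons as well. The ranges of the 9 mice did not overlap for any of these 10 genes.

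Between Pvalb and Sst interneurons of PFC, 22 of 44 channel genes were higher in Pvalb and 13 in Sst interneurons, against 14.7 and 15.0% of all genes. The median log2 fold change was 0.33 for channels and -0.01 for all genes. Kcnc1 measured 589.9 to 1182 CPM (median 964) in Pvalb and 178 to 344 CPM (median 243) in Sst interneurons (log2 fold change 1.78, SE 0.0864, adjusted p = 2.52e-20). Other Pvalb genes with large log2 fold changes were Kcnh7 (2.14), Kcnip2 (2.03) and Kcnab3 (1.54). The A-type pore lay on the other side. Kcnd3 measured 45.8 to 124 CPM (median 68.2) in Pvalb and 249.5 to 476 CPM (median 383) in Sst interneurons (log2 fold change -2.31, SE 0.134, adjusted p = 7.09e-18). Kcnk13 (-2.36), Kcnmb4 (-1.60), Kcnb2 (-1.19) and Kcnk2 (-1.12) were also higher in Sst interneurons. Of these 9 genes, Kcnmb4 alone had overlapping ranges, at 6.10 to 37.4 CPM (median 19.9) in Pvalb and 32.9 to 80.9 CPM (median 58.2) in Sst interneurons.

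Between upper-layer and layer 6 corticothalamic neurons, 36 of 70 channel genes were higher in upper layers and 17 in layer 6, against 21.0 and 18.4% of all genes. The median log2 fold change was 0.26 for channels and 0.01 for all genes. Kcng3 again led, at 17.5 to 40.2 CPM (median 31.9) in upper layers and 1.39 to 4.33 CPM (median 2.85) in layer 6 (log2 fold change 3.39, SE 0.147, adjusted p = 1.19e-15). Kcnh4, an ELK channel (2.52), Kcnk13 (2.32), Kcnip4 (2.31) and Kcnb2 (2.18) followed in log2 fold change. Kcna6 was the gene most shifted to layer 6. It measured 18.03 to 28.3 CPM (median 24.8) in upper layers and 81.8 to 103 CPM (median 94.4) in layer 6 (log2 fold change -1.91, SE 0.0723, adjusted p = 9.41e-17). Kcnip3 (-1.76), Kcnk2 (-1.67), Kcnn1 (-1.62) and Kcnn2 (-1.34) were higher in layer 6. Every value of these 10 genes in 1 type lay outside the range of the other type.

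**Figure D3:**
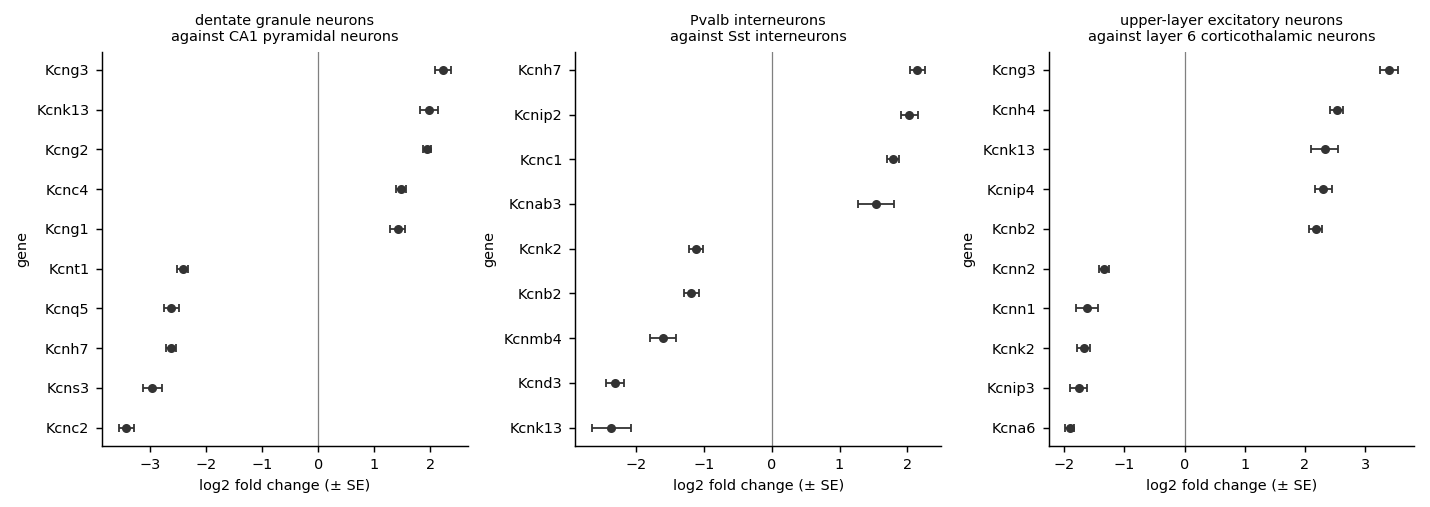
Log2 fold change (points) with SE (bars) of 4 or 5 channel genes far from 0 in each direction for dentate granule against CA1 pyramidal neurons (Hip), Pvalb against Sst interneurons (PFC) and upper-layer against layer 6 corticothalamic neurons (PFC), 9 mice each. Values right of 0 are higher in the first type, where Kcng3 lies at 2.23 and 3.39 in the left and right panels.

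In Hip, channel genes fell in GF relative to SPF mice more often than they rose. In dentate granule neurons 7 of 69 channel genes tested rose and 19 fell, against 23.4 and 20.4% of all genes. In CA1 pyramidal neurons 6 of 69 channel genes tested rose and 19 fell, against 22.5 and 19.1% of all genes. In CA3 pyramidal neurons 7 of 69 channel genes tested rose and 21 fell, against 23.9 and 22.2% of all genes. In interneurons 4 of 69 channel genes tested rose and 18 fell, against 19.6 and 15.8% of all genes. Median log2 fold changes of the channels were -0.14, -0.20, -0.13 and -0.16 in these 4 types, against 0.01, 0.03, 0.04 and 0.01 over all genes. Over the 8 cell types of Hip tested, 31 of 455 tests of a gene in a type were rises and 136 were falls, while 20.2% of the tests of all genes were rises and 16.8% were falls, or 36.9% in all. The split moved with the scaling, and over the 8 types it was 49 rises and 118 falls without TMM factors. Without TMM factors, which shifted the median of all genes in the 4 neuron types to between 0.13 and 0.23, rises and falls were 12 and 17 in dentate granule, 9 and 11 in CA1 pyramidal and 16 and 16 in CA3 pyramidal neurons, and 5 and 12 in interneurons. After removal of the trend of each library with span and GC content of the genes they were 9 and 13, 4 and 10, 6 and 15, and 5 and 6 in the same order, with 32 and 79 over the 8 types. Without SPF mouse 31, 14 channel genes were called in interneurons in place of 22.

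**Figure D4:**
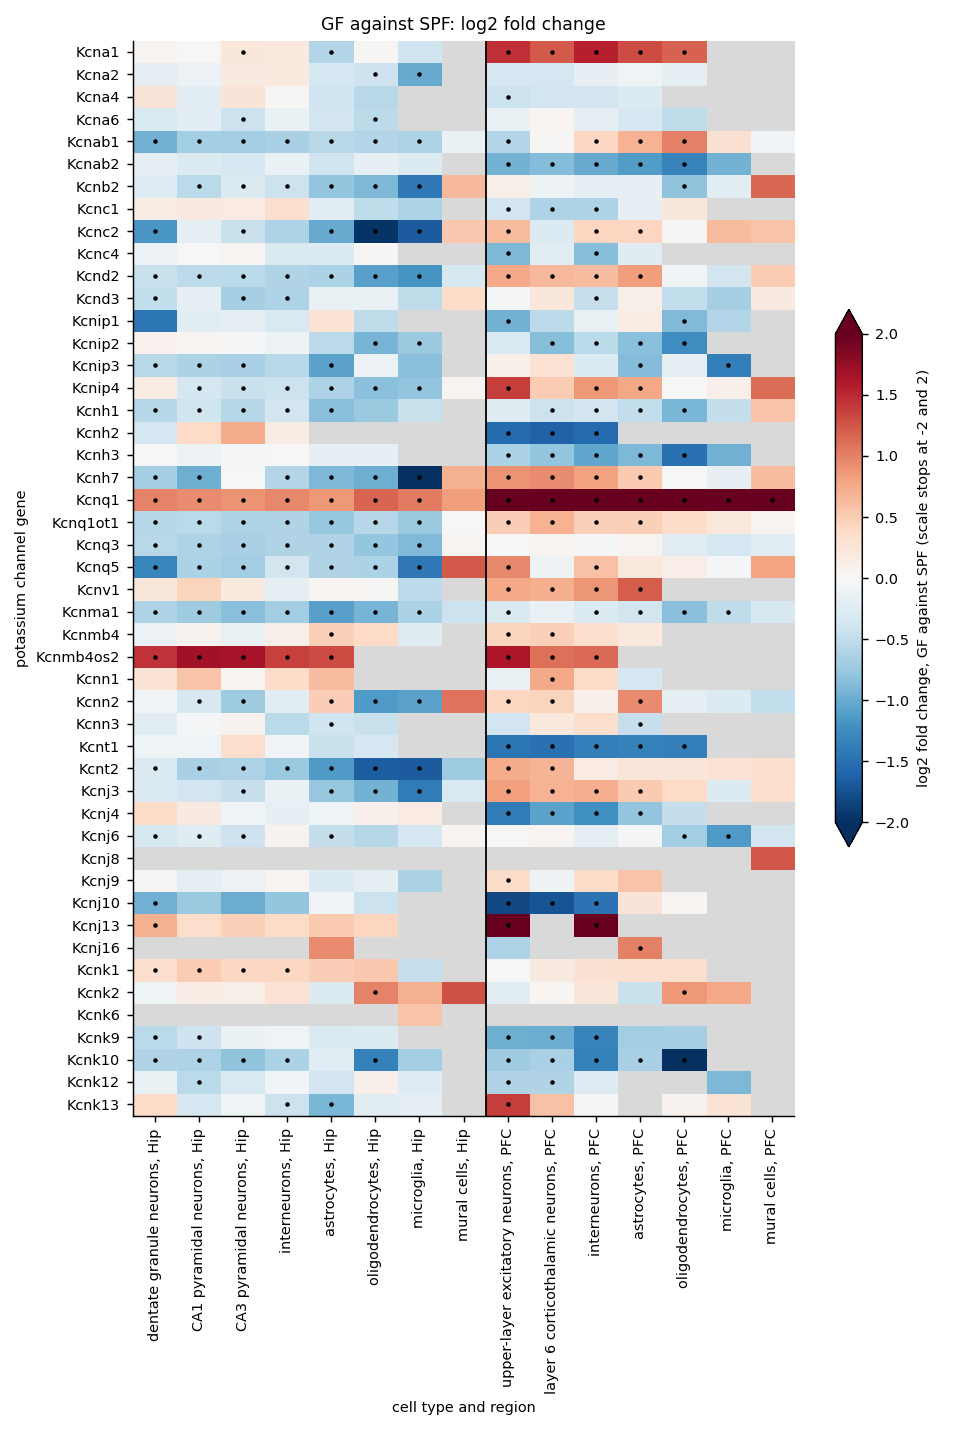
Log2 fold change of GF against SPF mice for channel genes (rows) in 8 cell types of Hip and 7 of PFC (columns), 3 mice per group, on a colour scale that stops at -2 and 2. Dots mark adjusted p under 0.05 and grey marks genes not tested. Kcnma1 and Kcnk10 are lower in both regions, Kcnd2, Kcnh7 and Kcnq5 are lower in Hip and higher in PFC, and Kcnq1 is higher in both.

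The Kv7 channels Kcnq3 and Kcnq5 fell in Hip neurons. In dentate granule neurons, Kcnq5 measured 112, 142 and 169 CPM in GF against 301, 295 and 359 CPM in SPF mice (log2 fold change -1.30, SE 0.231, adjusted p = 0.000821). In CA3 pyramidal neurons, where it is highest, it measured 3034, 2931 and 3459 CPM in GF against 4527, 4429 and 4515 CPM in SPF mice (log2 fold change -0.70, SE 0.0779, adjusted p = 4.35e-05). Kcnq3 in CA1 pyramidal neurons measured 879, 910.2 and 915 CPM in GF against 1174, 1378 and 1121 CPM in SPF mice (log2 fold change -0.61, SE 0.0968, adjusted p = 0.000757). In each of these comparisons the 3 GF values were all below the SPF values. Of 36 tests of the 5 Kv7 genes in the 8 types, 22 were falls and 7 were rises, against the 16.8 and 20.2% of all genes over these types, and all 7 rises were of Kcnq1. After removal of the trend with span and GC content, 9 falls and 7 rises were called, and Kcnq3 in CA1 pyramidal neurons was not among them.

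A-type channels and the ERG channel Kcnh7 fell in the same neurons, while the ERG gene Kcnh2 was not called in any of the 4 Hip types in which it was tested. In CA1 pyramidal neurons Kcnd2 measured 4773, 3962 and 3591 CPM in GF against 5245, 5735 and 4819 CPM in SPF mice (log2 fold change -0.53, SE 0.122, adjusted p = 0.00601). Its KChIP partner Kcnip3 measured 50.2, 75.7 and 78.2 CPM in GF against 79.7, 83.4 and 116 CPM in SPF mice (log2 fold change -0.63, SE 0.184, adjusted p = 0.0183) there. No GF value of either gene reached an SPF value. Kcnip4 measured 9403, 8894 and 10400 CPM in GF against 10830, 11370 and 9941 CPM in SPF mice (log2 fold change -0.33, SE 0.0955, adjusted p = 0.0166), with overlap of the groups. The call of Kcnip3 was lost without GF mouse 5 or SPF mouse 32 and without TMM factors, and that of Kcnip4 without GF mouse 6 or SPF mouse 30 or 31 and without TMM factors. Removal of the trend with span and GC content turned the sign of Kcnip4 in CA1 neurons, with no call. Kcnh7, the gene with the largest fall of a channel in CA1 neurons, measured 1606, 1132 and 1077 CPM in GF against 2323, 2421 and 1916 CPM in SPF mice (log2 fold change -0.97, SE 0.162, adjusted p = 0.00101). Interneurons showed falls of the other A-type pore and its antisense RNA. Kcnd3 in interneurons measured 306, 280.3 and 259.8 CPM in GF against 412, 424 and 359 CPM in SPF mice (log2 fold change -0.62, SE 0.0996, adjusted p = 0.00125). Its antisense RNA Kcnd3os measured 4.98, 3.23 and 2.91 CPM in GF against 5.27, 6.49 and 6.31 CPM in SPF mice (log2 fold change -0.81, SE 0.261, adjusted p = 0.0331), a call that was lost without any 1 of GF mice 6 and 7 and SPF mice 30, 31 and 32. Kv4 genes fell in 10 of 22 tests and rose in 0, and KChIPs fell in 12 of 28 and rose in 0, against 16.8% falls and 20.2% rises over all genes. With the trend with span and GC content removed, Kv4 genes fell in 2 tests and KChIPs fell in 5 and rose in 1, and the calls of Kcnd2 in CA1 neurons and Kcnd3 in interneurons were lost.

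Kcnma1, the BK pore, fell in 7 of 8 Hip types. In CA3 pyramidal neurons, where it is highest, it measured 1211, 1190 and 1377 CPM in GF against 2026, 1903 and 2015 CPM in SPF mice (log2 fold change -0.84, SE 0.0757, adjusted p = 1.79e-05). The GF values lay below the SPF values. Kcnab1 fell in 7 of 8 types and in CA1 pyramidal neurons measured 625, 554 and 631 CPM in GF against 818, 914 and 856 CPM in SPF mice (log2 fold change -0.68, SE 0.0926, adjusted p = 0.000338). The K2P gene Kcnk10 (TREK-2) fell in 5 of 7 types and in CA3 pyramidal neurons measured 81.2, 51.9 and 63.4 CPM in GF against 109.9, 101 and 91.5 CPM in SPF mice (log2 fold change -0.80, SE 0.143, adjusted p = 0.00078). In dentate granule neurons, where it is low, the glial gene Kcnj10 measured 2.21, 3.21 and 3.39 CPM in GF against 4.73, 3.92 and 6.93 CPM in SPF mice (log2 fold change -0.96, SE 0.285, adjusted p = 0.0164). Again no GF value reached an SPF value, but the call of Kcnj10 was lost without GF mouse 5 or SPF mouse 32. Over the 8 types, 19 of 47 tests of calcium- or sodium-activated genes, 10 of 54 of K2P and 7 of 20 of Kv beta genes were falls. Rises were 2, 6 and 0 in this order, beside 16.8% falls and 20.2% rises over all genes. After removal of the trend with span and GC content there were 9, 5 and 5 falls and 4, 10 and 0 rises.

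Fewer channel genes rose in Hip neurons. Kcnk1 rose in 4 of 7 types, and in CA1 pyramidal neurons it measured 32.2, 45.9 and 46.9 CPM in GF against 23.4, 23.9 and 31.01 CPM in SPF mice (log2 fold change 0.50, SE 0.164, adjusted p = 0.0305), a call lost without any 1 of GF mice 6 and 7 and SPF mice 30 and 31. The silent subunit Kcns1 measured 2.72, 2.23 and 3.63 CPM in GF against 0.661, 1.17 and 1.47 CPM in SPF mice (log2 fold change 1.19, SE 0.36, adjusted p = 0.0178) in CA3 pyramidal neurons and 4.28, 3.01 and 4.84 CPM in GF against 1.51, 1.39 and 2.08 CPM in SPF mice (log2 fold change 1.17, SE 0.293, adjusted p = 0.00653) in granule neurons. Kcnf1, another silent subunit, measured 4.26, 4.09 and 8.84 CPM in GF against 2.12, 2.57 and 3.18 CPM in SPF mice (log2 fold change 0.95, SE 0.318, adjusted p = 0.0277) in CA3 neurons. In each of these comparisons the groups were separate, but the calls in CA3 neurons rested on single mice: that of Kcns1 was lost without GF mouse 7 or SPF mouse 30, and that of Kcnf1 without GF mouse 7 or SPF mouse 30 or 31. Silent subunits rose in 4 of 47 tests and fell in 0, beside 20.2 and 16.8% of all genes, and the rises were 1 by DESeq2 and 9 without TMM factors. After removal of the trend with span and GC content there were 3 rises and 3 falls, and the call of Kcns1 in granule neurons was lost. The noncoding Kcnmb4os2 rose in all 5 types tested, with log2 fold changes of 1.30 to 1.68. In CA1 pyramidal neurons it measured 6.54, 7.25 and 5.21 CPM in GF against 1.10, 2.23 and 2.00 CPM in SPF mice (log2 fold change 1.68, SE 0.284, adjusted p = 0.00108). Its calls were lost in all 5 types after removal of that trend, with adjusted p from 0.0562 to 0.465.

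Falls outnumbered rises in the glia of Hip as well. In astrocytes 4 of 67 channel genes tested rose and 22 fell, against 19 and 14.7% of all genes. In oligodendrocytes 2 of 55 channel genes tested rose and 20 fell, against 18.9 and 14.4% of all genes. In microglia 1 of 39 channel genes tested rose and 17 fell, against 15.1 and 10.6% of all genes. Medians were -0.33, -0.45 and -0.63 for channels, against 0.00, -0.01 and 0.00 for all genes. When the trend with span and GC content was taken out, 4 rose and 10 fell in astrocytes. Without GF mouse 5, 16 channels were called in astrocytes in place of 26. In mural cells 0 of 18 were called by edgeR and 0 by DESeq2, against 0.0% of all genes, with 3 at an unadjusted p under 0.05. Of the genes higher in the glial type than in excitatory neurons in all 9 mice, 1 of 11 tested rose and 1 fell in astrocytes, and 0 of 10 rose and 2 fell in oligodendrocytes. In microglia the 4 such genes, Kcnd1, Kcnk12, Kcnk13 and Kcnk6, had adjusted p of 0.116 to 0.515. The level of the 7 excitatory markers relative to excitatory neurons was 40.3 to 47.0% in microglia of GF and 36.4 to 47.2% in those of SPF mice. Its part in the falls was not tested.

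In astrocytes the SK channels had opposite signs. Kcnn2 measured 1033, 936 and 947 CPM in GF against 746, 714 and 626 CPM in SPF mice (log2 fold change 0.49, SE 0.115, adjusted p = 0.00517), without overlap. Kcnn3 measured 111, 98.8 and 86.9 CPM in GF against 131, 151 and 110.4 CPM in SPF mice (log2 fold change -0.40, SE 0.147, adjusted p = 0.0499), with overlap of the groups. This call of Kcnn3 was lost by DESeq2 and without any 1 of GF mice 5, 6 and 7, SPF mice 30 and 31 and CGF mouse 18. Kcnj10 in astrocytes measured 87.4, 65.0 and 52.0 CPM in GF against 62.1, 78.6 and 71.5 CPM in SPF mice (log2 fold change -0.06, SE 0.157, adjusted p = 0.804). The groups overlapped for this main glial rectifier, and it was not called. Kcnk1 measured 148, 88.0 and 102 CPM in GF against 74.6, 90.4 and 76.4 CPM in SPF mice (log2 fold change 0.49, SE 0.197, adjusted p = 0.0714) and was not called either, but passed without GF mouse 6 or CGF mouse 18. Kcnt2 measured 66.3, 51.6 and 78.2 CPM in GF against 176, 119.8 and 139 CPM in SPF mice (log2 fold change -1.13, SE 0.201, adjusted p = 0.00088). Kcnh8, the OPC gene, measured 0, 2.55 and 1.46 CPM in GF against 6.41, 4.30 and 4.39 CPM in SPF mice in astrocytes. It is among the falls counted there, but no GF mouse reached the level that the filter on low counts asked for. No test of Kcnh8 is therefore given. The GF values of both genes lay below the SPF values, but the call of Kcnh8 was lost without GF mouse 5 or 7 or SPF mouse 30.

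In oligodendrocytes the Kv1 genes were unequal. Kcna6 measured 131, 97.0 and 83.4 CPM in GF against 177, 146 and 139 CPM in SPF mice (log2 fold change -0.52, SE 0.181, adjusted p = 0.0375). Kcna2 measured 38.7, 40.8 and 44.2 CPM in GF against 52.6, 55.8 and 62.4 CPM in SPF mice (log2 fold change -0.42, SE 0.151, adjusted p = 0.0431). Both were lower in GF mice without overlap, while Kcna1 measured 241, 234 and 189 CPM in GF against 197, 241 and 238 CPM in SPF mice (log2 fold change 0.03, SE 0.134, adjusted p = 0.893), with overlap. The sign of Kcna1 turned under several settings, and with the trend with span and GC content removed it was called as a fall of 0.56 on the log2 scale (adjusted p = 0.00839 by edgeR). The call of Kcna6 was lost without any 1 of GF mice 6 and 7 and SPF mice 30 and 31. That of Kcna2 was lost by DESeq2, without CGF mouse 18 and without any 1 of the GF and SPF mice. The largest falls in oligodendrocytes were of Kcnc2 (-1.96), Kcnt2 (-1.65) and Kcnk10 (-1.35 in log2 fold change), which have higher means in excitatory neurons. In Hip microglia, Kcnk13 measured 181, 242 and 179.6 CPM in GF against 239, 269.9 and 195 CPM in SPF mice (log2 fold change -0.20, SE 0.179, adjusted p = 0.452), with overlap. Kcnk6 measured 51.8, 54.7 and 59.0 CPM in GF against 37.4, 32.6 and 43.0 CPM in SPF mice (log2 fold change 0.57, SE 0.264, adjusted p = 0.116), higher in GF mice without overlap but not called. The largest fall in microglia was of Kcnh7, at 64.8, 49.5 and 76.3 CPM in GF against 318, 301 and 417 CPM in SPF mice (log2 fold change -2.41, SE 0.21, adjusted p = 4.35e-08). Kcnt2 (-1.66) and Kcnc2 (-1.66 in log2 fold change) followed, and these 3 genes have higher means in excitatory neurons.

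In PFC both directions were frequent. In upper-layer neurons 19 of 69 channel genes tested rose and 28 fell, against 29.4 and 28.5% of all genes. In layer 6 corticothalamic neurons 13 of 64 channel genes tested rose and 19 fell, against 26.3 and 25.2% of all genes. In interneurons 13 of 67 channel genes tested rose and 22 fell, against 26.1 and 24.9% of all genes. In astrocytes 13 of 48 channel genes tested rose and 13 fell, against 23.1 and 22.3% of all genes. In oligodendrocytes 4 of 39 channel genes tested rose and 12 fell, against 18.7 and 19.1% of all genes. In microglia 1 of 26 channel genes tested rose and 4 fell, against 14.8 and 15.0% of all genes, and in mural cells 1 of 19 channel genes tested rose and 0 fell, against 5.98 and 4.56% of all genes. Medians of the channels were -0.24, -0.18, -0.18, -0.04, -0.19, -0.31 and 0.35 in this order, against 0.01, 0.01, 0.02, 0.02, 0.00, -0.01 and -0.03 over all genes. Over the 7 types, 64 of 332 tests were rises and 98 were falls, while 24.0% of the tests of all genes were rises and 23.2% were falls, or 47.1% in all. Counted among the rises were Kcnj13 in upper-layer neurons and interneurons and Kcnq1 in microglia, which passed the filter on low counts through the GF mice. The counted rises of Kcnq1 in astrocytes, oligodendrocytes and mural cells may have passed it in the same way. GF libraries of PFC were deeper, with a median of 6795.5 to 7426.5 UMIs per nucleus against 3037 to 3208 in SPF mice, and mitochondrial genes took 0.359 to 0.594% of their UMIs against 1.66 to 3.22% in SPF mice and 1.28 to 2.24% in CGF mice. The part of the mitochondrial share in these counts was not tested. With all libraries thinned to the smallest total, 6 channels were called in oligodendrocytes in place of 16 and 0 in microglia in place of 5. Microglial calls also numbered 1 to 3 without any 1 of the GF mice or SPF mouse 32. After removal of the trend of each library with span and GC content of the genes, 7 channels rose and 9 fell in astrocytes, in place of 13 and 13. Without TMM factors, which shifted the median of all genes to -0.16 in upper-layer, to -0.14 in layer 6 neurons and to 0.14 in microglia, rises and falls were 13 and 33, 10 and 23, and 1 and 2 in these types. In mural cells 4 channels were called without GF mouse 5 and 0 without GF mouse 6 or SPF mouse 32, in place of 1. Markers of excitatory neurons in mural cells stood at 50.0 to 75.6% of their level in excitatory neurons in GF mice and at 33.5 to 48.8% in SPF mice, and their part in the mural result was not tested.

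Kcnt1, the Slack channel, fell in 5 of 5 types. In upper-layer neurons it measured 50.4, 66.2 and 57.5 CPM in GF against 189, 179.7 and 163 CPM in SPF mice (log2 fold change -1.44, SE 0.136, adjusted p = 6.19e-07). The ERG channel Kcnh2 measured 8.90, 10.4 and 8.44 CPM in GF against 26.8, 29.7 and 28.5 CPM in SPF mice (log2 fold change -1.55, SE 0.18, adjusted p = 5.93e-06) in interneurons and had a log2 fold change of -1.62 in layer 6 corticothalamic neurons. No GF value of either gene reached an SPF value. The strong inward rectifier Kcnj4 (Kir2.3) measured 30.5, 35.7 and 31.8 CPM in GF against 86.6, 106 and 97.3 CPM in SPF mice (log2 fold change -1.40, SE 0.212, adjusted p = 5.85e-05) in upper-layer neurons. The acid-sensitive Kcnk9 measured 15.7, 17.9 and 17.6 CPM in GF against 42.3, 46.5 and 44.5 CPM in SPF mice (log2 fold change -1.31, SE 0.142, adjusted p = 3.06e-06) in interneurons. These genes were likewise separate between the groups. Kcnj10, low in neurons, measured 1.19, 1.60 and 1.64 CPM in GF against 5.65, 6.16 and 5.89 CPM in SPF mice in upper-layer neurons. No GF mouse reached the level that the filter on low counts asked for there, so that no test of Kcnj10 is given. Kcnab2, the main Kv beta subunit of axons, fell in 5 of 6 types and in interneurons measured 54.1, 50.1 and 49.6 CPM in GF against 94.8, 116 and 110.3 CPM in SPF mice (log2 fold change -1.0, SE 0.12, adjusted p = 7.69e-06).

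The spiking channels of interneurons changed unequally. Kcnc1 measured 318, 352 and 297 CPM in GF against 491, 582 and 478 CPM in SPF mice (log2 fold change -0.62, SE 0.146, adjusted p = 0.00248). Kcnc4 measured 10.3, 9.99 and 12.2 CPM in GF against 16, 22.4 and 22.7 CPM in SPF mice (log2 fold change -0.85, SE 0.226, adjusted p = 0.00572). These Kv3 genes were lower in GF mice without overlap. Kcnc2 went the other way, at 1919, 1841 and 1634 CPM in GF against 1427, 1404 and 1347 CPM in SPF mice (log2 fold change 0.43, SE 0.154, adjusted p = 0.0303). Kcna1 rose in 5 of 5 types of PFC, by a log2 fold change of at least 1.17, and in interneurons measured 97.4, 128 and 98.1 CPM in GF against 38.3, 37.0 and 39.7 CPM in SPF mice (log2 fold change 1.55, SE 0.14, adjusted p = 4.82e-07). The silent subunit Kcnv1 rose in 4 of 4 types and in upper-layer neurons measured 56.6, 57.8 and 49.6 CPM in GF against 33.1, 38.9 and 35.1 CPM in SPF mice (log2 fold change 0.77, SE 0.158, adjusted p = 0.000786). GF mice were above SPF mice for all 3 of these genes, but the call of Kcnc2 was lost without any 1 of GF mice 5 and 6 and SPF mice 30, 31 and 32. With the trend with span and GC content taken out, Kv3 genes fell in 2 of 21 tests over the 7 types in place of 10 and rose in 2 in place of 3, beside the 23.2% falls and 24.0% rises of all genes without this removal. The calls of Kcnc1 and Kcnc4 in interneurons and of Kcnv1 in upper-layer neurons were then lost. Of the PFC nuclei kept, 12.28% were gated as interneurons in GF mice against 7.79% in SPF mice. Excitatory markers in these nuclei stood at 36.9 to 42.1% of their level in excitatory neurons for GF and 44.5 to 47.5% for SPF mice. The part of the mix of interneuron types and of RNA from excitatory neurons in the interneuron values of PFC was not tested.

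Several channel genes rose in PFC that had fallen in Hip. In upper-layer neurons Kcnd2, which spans 514.3 kb, measured 2416, 2465 and 1903 CPM in GF against 1441, 1562 and 1513 CPM in SPF mice (log2 fold change 0.75, SE 0.157, adjusted p = 0.000928). Kcnip4, which spans 1135.0 kb, measured 12330, 16120 and 14520 CPM in GF against 5765, 6491 and 6238 CPM in SPF mice (log2 fold change 1.38, SE 0.178, adjusted p = 1.31e-05). Kcnq5, which spans 563.5 kb, measured 3263, 2957 and 2929 CPM in GF against 1654, 1732 and 1867 CPM in SPF mice (log2 fold change 0.96, SE 0.14, adjusted p = 4.19e-05). All 3 genes were higher in every GF mouse than in any SPF mouse. The GIRK gene Kcnj3 measured 529, 402 and 372 CPM in GF against 253, 298 and 273 CPM in SPF mice (log2 fold change 0.82, SE 0.168, adjusted p = 0.000745). Kcnh7 measured 2648, 2308 and 2080 CPM in GF against 1286, 1441 and 1497 CPM in SPF mice (log2 fold change 0.90, SE 0.168, adjusted p = 0.000384). These were separate between the groups as well. Of 70 channel genes tested in both regions, 8 were lower in at least 2 Hip types and higher in at least 2 PFC types and were called in no type in the other direction, against 4.8% of all genes tested in both. They were Kcnc2, Kcnd2, Kcnh7, Kcnip4, Kcnj3, Kcnq1ot1, Kcnq5 and Kcnt2. Lower in both regions by the same rule were, among others, Kcnh1, Kcnip2, Kcnip3, Kcnj6, Kcnk10, Kcnk9 and Kcnma1, while 7.36% of all genes were. The 2 genes higher in both were Kcnmb4os2 and Kcnq1, against 11.9% of all genes.

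In PFC astrocytes, 5 channels tested were above the level of excitatory neurons in all 9 mice, and of these 2 rose and 1 fell, where 23.1 and 22.3% of all genes did in this type. Kcnj16 measured 27.8, 28.3 and 27.5 CPM in GF against 13.7, 3.13 and 23.0 CPM in SPF mice (log2 fold change 1.01, SE 0.378, adjusted p = 0.0328). Kcnn2 measured 862, 908 and 819.9 CPM in GF against 503, 379 and 490.3 CPM in SPF mice (log2 fold change 0.94, SE 0.148, adjusted p = 1.52e-05). Kcnn3 measured 119.6, 149.6 and 131 CPM in GF against 219.8, 149 and 193 CPM in SPF mice (log2 fold change -0.46, SE 0.151, adjusted p = 0.015). Kcnj16 and Kcnn2 were separate between the groups and Kcnn3 overlapped. The call of Kcnj16 was lost without any 1 of GF mice 6 and 7 and SPF mice 30 and 31, and that of Kcnn3 without GF mouse 5 or SPF mouse 30 or 32 and with the libraries thinned. The signs of Kcnn2 and Kcnn3 were those of Hip astrocytes. Kcnj10 measured 83.4, 80.5 and 57.1 CPM in GF against 63.5, 59.5 and 64.0 CPM in SPF mice (log2 fold change 0.25, SE 0.191, adjusted p = 0.295), with overlap. Kcnd1, a Kv4 pore, was counted as a fall in astrocytes, at 3.24, 2.18 and 3.98 CPM in GF against 8.58, 14.1 and 9.66 CPM in SPF mice. No GF mouse reached the level that the filter on low counts asked for, so that no test of it is given. The astrocyte sums of SPF mice 30 and 31 held 582382 and 638875 UMIs, so that these levels stand for few UMIs of Kcnd1. In oligodendrocytes, 4 channels tested were above excitatory neurons in all 9 mice, and of these 1 rose and 0 fell, where 18.7 and 19.1% of all genes did. It was Kcna1, at 264, 268 and 221 CPM in GF against 105, 124 and 108 CPM in SPF mice (log2 fold change 1.17, SE 0.188, adjusted p = 1.27e-05). Kcnk10 was counted as a fall in oligodendrocytes, at 8.45, 4.03 and 14.0 CPM in GF against 52.5, 42.5 and 43.2 CPM in SPF mice. So was the ELK channel Kcnh3, at 20.1, 17.4 and 31.7 CPM in GF against 73.5, 38.6 and 89.4 CPM in SPF mice. For both genes no GF mouse reached the level that the filter on low counts asked for, so that no test of either is given. The GF mice were separate from the SPF mice in these 4 comparisons. In microglia Kcnk13 measured 227, 258 and 252 CPM in GF against 153, 257 and 164 CPM in SPF mice (log2 fold change 0.27, SE 0.241, adjusted p = 0.416), with overlap. Kcnip3 in microglia measured 32.7, 25.2 and 42.6 CPM in GF against 61.3, 85.8 and 91.8 CPM in SPF mice. It is among the falls counted, a call lost without GF mouse 6. Since no GF mouse reached the level that the filter on low counts asked for, no test of Kcnip3 is given. Its UMIs were too few for a test with the libraries thinned, with a stricter gate or without SPF mouse 32. In the GF microglia of PFC the excitatory markers stood at 47.8 to 51.4% of the level in excitatory neurons, against 27.2 to 47.0% in SPF mice, and their part in the values was not tested.

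The largest rise in PFC for which a test is given was of Kcnq1 (KvLQT1), known from heart and epithelia. Kcnj13 (Kir7.1), known from the choroid plexus, was counted in upper-layer neurons and interneurons of PFC mainly in GF mice. Kcnq1 (chr7:143106362-143427042) measured 314, 258 and 284 CPM in GF against 12.4, 9.57 and 7.47 CPM in SPF mice (log2 fold change 5.04, SE 0.174, adjusted p = 5.11e-11) in upper-layer neurons. It was counted as a rise in all types of PFC, with log2 fold changes of 4.89 in layer 6 corticothalamic neurons and 5.37 in interneurons. In astrocytes, oligodendrocytes and mural cells the sums were smaller, and it may have passed the filter on low counts through the GF mice alone. No test of it is given for these types. The call in mural cells was lost without GF mouse 6 or SPF mouse 32. In microglia Kcnq1 had 173 UMIs in the GF against 2 in the SPF mice. There it passed the filter on low counts through the GF mice, so that no test of it is given. In Hip it rose in 7 of 8 types, and in CA1 pyramidal neurons it measured 229.7, 284 and 258 CPM in GF against 115, 132 and 111 CPM in SPF mice (log2 fold change 0.94, SE 0.0995, adjusted p = 0.000125). The groups did not overlap in either region, and the SPF mice were lower in PFC than in Hip. Kcnj13 (chr1:87386363-87394729) had 41, 46 and 73 UMIs in upper-layer neurons of the GF mice and 0, 1 and 0 in those of the SPF mice. In interneurons it had 55, 42 and 57 UMIs against 1, 2 and 0. It passed the filter on low counts through the GF mice, so that no test of it is given. In CGF upper-layer neurons Kcnq1 stood at 14.4, 9.15 and 9.16 CPM (adjusted p = 0.817 against SPF mice) and Kcnj13 had 2, 1 and 1 UMIs.

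Both genes lie against genes of the opposite strand. Kcnj13 is wholly inside Gigyf2, and 43.8% of Kcnq1 is covered by 4933417O13Rik, Gm28821 and Kcnq1ot1. Over all genes, those with at least 90% of their span inside a gene of the other strand had a median log2 fold change of GF against SPF of 2.70 in PFC upper-layer neurons (866 genes), 2.94 in interneurons (657 genes) and 2.10 in layer 6 neurons (580 genes), against -0.08, -0.05 and -0.05 for genes with no such overlap. In CGF against SPF the same genes had medians of 0.10, 0.12 and 0.06. In Hip the median of GF against SPF was 0.42 in CA1 pyramidal neurons and 0.48 in dentate granule neurons. Whether reads of the opposite strand were counted for Kcnq1 and Kcnj13 was not tested. Of the 98 channel genes, 35 overlap a gene of the other strand and 8 lie at least 90% inside one, among them Kcnq1ot1 in Kcnq1 and Kcnmb1 in Kcnip1, while Kcnt1, Kcna1, Kcnv1, Kcnj4, Kcnk9 and Kcnj10 overlap none. Other genes reported here do overlap, among them Kcnab1 over 72.3% of its span, Kcna6 over 68.0% and Kcnmb4os2 over 33.2%, inside Kcnmb4. The part of this overlap in their values was not tested.

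The falls in Hip went with the length of the gene. The median span from first to last base was 28.17 kb for the channels and 12.64 kb for all genes, and 23 channels exceeded 100 kb. In CA1 pyramidal neurons the median log2 fold change of all genes went from 0.65 for genes under 10 kb to -0.47 for genes over 300 kb, and that of the channels from 0.19 (11 genes) to -0.53 (13 genes). Of the 13 channels over 300 kb, among them Kcnd2, Kcnip4, Kcnq5, Kcnh7 (490.9 kb) and Kcnt2 (365.9 kb), 10 fell in CA1 neurons and 1 rose, beside 62.5 and 1.86% of all genes of that length. In PFC upper-layer neurons the medians of all genes were -0.04 under 10 kb and 0.09 over 300 kb, and of the 13 long channels 3 fell and 7 rose, beside 21.5 and 29.7% of all genes of that length. After removal of the trend of each library with span and GC content of the genes, 14 channels were called in Hip CA1 neurons in place of 25, 11 in interneurons in place of 22 and 14 in astrocytes in place of 26. Not every subfamily lost falls. Kv1 genes of Hip had 1 rise and 5 falls of 26 tests before the removal and 0 and 15 after it. In PFC they had 5 and 1 of 19 before and 5 and 6 after. Kir genes of Hip had 1 rise and 9 falls of 59 both times. Before the removal, 20.2% rises and 16.8% falls were called over all genes in Hip, and 24.0 and 23.2% in PFC. GF libraries of Hip had 0.645 to 1.10% mitochondrial UMIs against 0.128 to 0.471% in SPF mice. They also had fewer UMIs per nucleus. The part of RNA quality and of depth per nucleus in the falls was not tested.

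**Figure D5:**
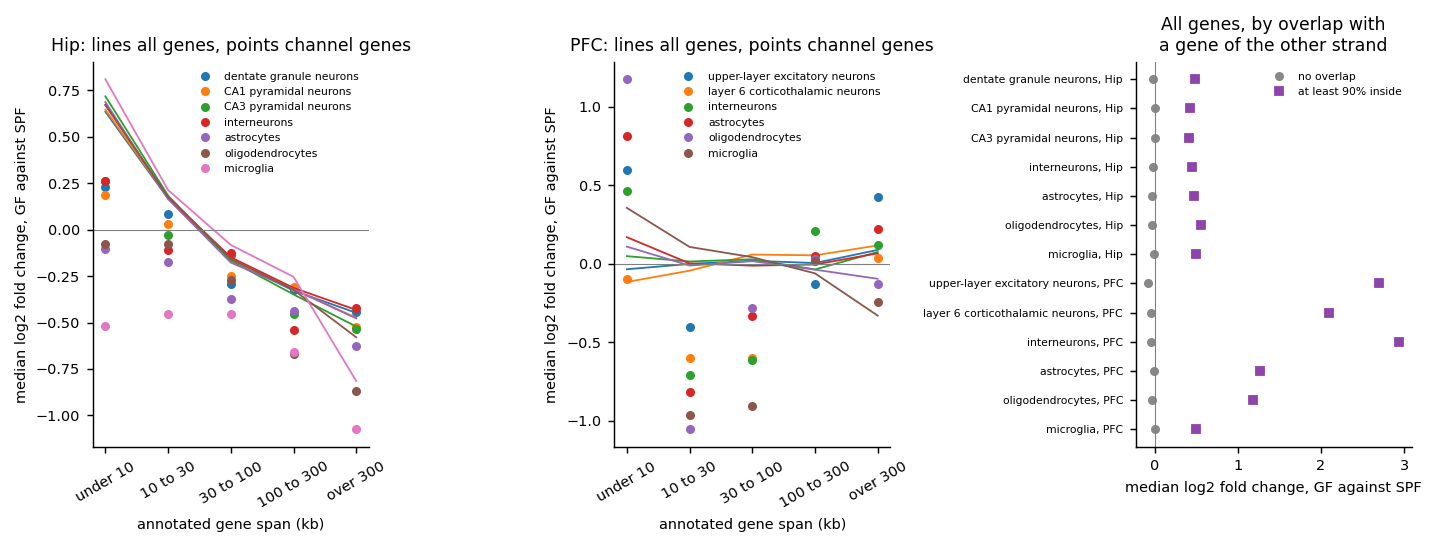
Median log2 fold change of GF against SPF mice by span of the gene in Hip (left) and PFC (middle), with lines for all genes and points for channel genes of a cell type, and by opposite-strand overlap (right) for all genes with none or with at least 90% of their span inside another gene. Lines fall with span in Hip and stay near 0 in PFC neurons, and the overlapped genes of PFC neurons lie between 2.10 and 2.94.

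Few channel genes differed between CGF and SPF mice. Over the types of Hip, 3 of 455 tests were rises and 1 was a fall, while 0.379% of the tests of all genes were called, and these 4 were in dentate granule neurons, where 0.795% of all genes rose and 0.463% fell. Over the types of PFC, 0 of 332 tests were rises by edgeR (10 at an unadjusted p under 0.05, and 0 by DESeq2) and 2 were falls, while 0.153% of the tests of all genes were called, and both falls were in upper-layer neurons, where 0.201% of all genes rose and 0.0718% fell. In dentate granule neurons Kcnip4 measured 14590, 13980 and 13700 CPM in CGF against 8945, 9284 and 10420 CPM in SPF mice (log2 fold change 0.62, SE 0.0619, adjusted p = 0.000716). Kcnt2 measured 529, 579.6 and 520.2 CPM in CGF against 442, 416 and 367 CPM in SPF mice (log2 fold change 0.47, SE 0.101, adjusted p = 0.0445). Kcnd2 measured 5618, 6047 and 5565 CPM in CGF against 4752, 4711 and 3994 CPM in SPF mice (log2 fold change 0.42, SE 0.0809, adjusted p = 0.0305). All 3 were higher in CGF mice without overlap. The silent subunit Kcng3 fell in the same neurons, at 20.3, 20.4 and 28.7 CPM in CGF against 53.3, 42.4 and 37.4 CPM in SPF mice (log2 fold change -0.86, SE 0.156, adjusted p = 0.0222). It fell in PFC upper-layer neurons too, at 20.3, 17.5 and 18.8 CPM in CGF against 39.3, 28.1 and 31.9 CPM in SPF mice (log2 fold change -0.82, SE 0.148, adjusted p = 0.0325). Kcnk12 in these neurons measured 17.96, 18.7 and 22.2 CPM in CGF against 38.2, 30.8 and 33.3 CPM in SPF mice (log2 fold change -0.82, SE 0.144, adjusted p = 0.0293). No CGF value reached an SPF value in these falls. The number of calls rested on single mice. In Hip it was 1 without SPF mouse 30 or CGF mouse 18 and 2 without CGF mouse 17, and in PFC it was 0 without SPF mouse 30 or CGF mouse 17, 1 without GF mouse 5, SPF mouse 31 or CGF mouse 19 and 4 without CGF mouse 18. By DESeq2 it was 9 in Hip. Kcnip4 in granule neurons was called without any 1 mouse. The call of Kcnt2 was lost without any 1 of the SPF and CGF mice or GF mouse 7, that of Kcnd2 without any 1 of the CGF mice or SPF mouse 30, and that of Kcng3 without CGF mouse 17 or 18 or SPF mouse 30. In upper-layer neurons the call of Kcng3 was lost without any 1 of GF mice 5 and 6, SPF mice 30 and 32 and CGF mice 17 and 19, and that of Kcnk12 without any 1 of the SPF mice or CGF mouse 17. Both calls in upper-layer neurons were also lost with the CGF and SPF mice only. In Hip, 2 calls in place of 4 were left after removal of the trend with span and GC content.

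GF against CGF gave 44 rises and 123 falls of 455 tests in Hip, while 38.0% of the tests of all genes were called, or 76 and 102 without TMM factors and 38 and 74 after removal of the trend with span and GC content, and 72 and 84 of 332 in PFC, while 46.9% were called. This comparison shares the GF mice with GF against SPF, and the values of a few genes are given side by side. Kcnq5 in dentate granule neurons had log2 fold changes of -1.30 against SPF and -0.76 against CGF mice, and CGF mice measured 307, 184 and 140.5 CPM. The CGF values of Kcnq5 overlapped those of GF mice. Kcnt1 in PFC upper-layer neurons had -1.44 and -1.48, with CGF mice at 183, 145 and 229.6 CPM, above all GF values. Kcna1 in PFC interneurons had 1.55 and 1.25.

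Hip and PFC were compared in the 5 types gated in both regions, within each group, and a gene was counted when it passed with the same sign in GF, SPF and CGF mice. In interneurons 2 of 72 channel genes were higher in Hip and 5 were lower, against 0.979 and 0.556% of all genes. Kcnj4, the strong inward rectifier, measured 7.88 to 13.5 CPM (median 10.3) in Hip and 17.97 to 56.6 CPM (median 43.1) in PFC (log2 fold changes of -0.91, -1.98 and -1.95 in GF, SPF and CGF mice, adjusted p = 0.0135, 1.56e-07 and 2.07e-07). Kcnk2, the TREK-1 channel, measured 31.5 to 66.4 CPM (median 47.8) in Hip and 99.7 to 148 CPM (median 118) in PFC (log2 fold changes of -1.11, -1.16 and -1.20 in GF, SPF and CGF mice, adjusted p = 6.99e-05, 3.01e-06 and 1.93e-06). Kcnf1 measured 2.32 to 6.30 CPM (median 3.77) in Hip and 6.73 to 12.2 CPM (median 11.01) in PFC (log2 fold changes of -1.13, -0.89 and -1.47 in GF, SPF and CGF mice, adjusted p = 0.0292, 0.0322 and 0.000519). No Hip value of these 3 genes reached a PFC value. Excitatory markers in interneurons of GF mice stood at 34.8 to 36.9% of their level in excitatory neurons in Hip and at 36.9 to 42.1% in PFC. The shares were 32.9 to 36.9% and 44.5 to 47.5% in SPF mice, and 28.8 to 36.0% and 42.9 to 47.4% in CGF mice. The part of this RNA and of the mix of interneuron types in the differences between regions was not tested. Kcnj6 measured 166 to 221 CPM (median 185) in Hip and 117 to 171 CPM (median 148) in PFC (log2 fold changes of 0.62, 0.37 and 0.43 in GF, SPF and CGF mice, adjusted p = 0.000888, 0.0046 and 0.00141), with a narrow overlap. Kcnv1 and Kcnk12 were the other genes lower in Hip and Kcng3 the other gene higher. The count depended on the GF mice: with GF mouse 5, 6 or 7 left out it was 2 in place of 7, and 4 without SPF mouse 30. Kcnk2 passed without any 1 mouse. Kcnj4 no longer passed in all 3 groups without any 1 of the GF mice, Kcnf1 without any 1 of the GF and SPF mice or with the mouse as a block, and Kcnj6 without TMM factors.

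In astrocytes 2 of 68 channel genes were higher in Hip and 3 were lower in all 3 groups, against 2.03 and 1.47% of all genes. Kcnh4, an ELK channel, measured 0.340 to 2.51 CPM (median 1.28) in Hip and 0.986 to 17.2 CPM (median 7.60) in PFC. It is among the genes counted as lower in Hip, but it passed the filter on low counts through PFC. No test of it is therefore given. The EAG channel Kcnh5 measured 18.5 to 32.2 CPM (median 27.3) in Hip and 30.9 to 90.6 CPM (median 55.2) in PFC (log2 fold changes of -1.16, -1.21 and -0.98 in GF, SPF and CGF mice, adjusted p = 0.00956, 0.00215 and 0.00811). The silent subunit Kcng2 measured 9.51 to 27.4 CPM (median 19.1) in Hip and 3.71 to 12.5 CPM (median 7.25) in PFC (log2 fold changes of 1.90, 1.06 and 1.26 in GF, SPF and CGF mice, adjusted p = 0.000261, 0.0317 and 0.0151). The ranges overlapped for these 3 genes over the 9 mice. None of the 3 was above excitatory neurons in all 9 mice in PFC astrocytes. The excitatory markers stood at 30.2 to 42.9% of their level in excitatory neurons in Hip astrocytes and at 27.9 to 41.8% in those of PFC. The part of RNA from the neurons of each region in these differences was not tested. Kcnh4 no longer passed without any 1 of GF mice 5 and 7 and SPF mouse 31, Kcnh5 without any 1 of GF mice 6 and 7, SPF mouse 32 and CGF mouse 17, and Kcng2 without any 1 of SPF mice 30 and 32 and CGF mouse 19. Kcnh1 was also lower and Kcnip1 higher in Hip. In oligodendrocytes 1 of 58 was higher and 1 lower, against 0.777 and 0.673% of all genes. The higher gene was Kcng2, which had 76, 111 and 97 UMIs in Hip oligodendrocytes of GF, SPF and CGF mice against 13, 0 and 0 in those of PFC. It passed the filter on low counts through Hip, so that nothing is read from this count. In microglia 0 of 47 were higher and 1 lower, against 0.538 and 0.419% of all genes, and the count was 0 by DESeq2 and without TMM factors. In mural cells 0 of 23 were called by edgeR in all 3 groups, with 0 at an unadjusted p under 0.05 and 0 by DESeq2, against 0.0294 and 0.0% of all genes. With the mouse as a block, since both regions came from the same mice, the counts were 4 in oligodendrocytes in place of 2 and 2 in microglia in place of 1. The count in astrocytes was 3 without any 1 of GF mice 6 and 7, SPF mice 30, 31 and 32 and CGF mouse 19. In oligodendrocytes it was 1 without GF mouse 5 or SPF mouse 30 or 31, and in microglia 0 without any 1 of GF mice 5 and 7, SPF mice 30 and 32 and CGF mice 17 and 18.

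In interneurons fewer channel genes passed between regions in GF mice than in the other groups. In GF mice 2 channel genes were higher and 10 lower in Hip, against 1.34 and 1.21% of all genes. In SPF mice the numbers were 18 and 25, against 27.4 and 24.3% of all genes, and in CGF mice 15 and 26, against 27.0 and 25.6%. The PFC libraries of SPF and CGF mice were the shallower ones, so that region and depth cannot be told apart in these mice. The GF against SPF difference itself was tested between regions. In interneurons 11 channel genes had a difference above 0 (Hip minus PFC) and 16 below 0, against 16.9 and 20.1% of all genes, and without TMM factors 15 and 13 were. In astrocytes the numbers were 3 and 15, against 13.7 and 15.5% of all genes. In oligodendrocytes they were 4 and 9, against 8.67 and 8.0%, and in microglia 0 and 11, against 4.19 and 4.12%. Kcnj13 in interneurons, Kcnd1 in oligodendrocytes, and Kcnq1 and Kcnf1 in microglia are in these numbers, though each had at most 3 UMIs in 1 of the groups compared. The count in oligodendrocytes was 7 without SPF mouse 30 in place of 13. That in microglia was 5 without SPF mouse 31 or 32, 6 without GF mouse 6 and 6 by DESeq2, in place of 11. In mural cells 0 were called by edgeR, with 1 at an unadjusted p under 0.05, against 0.411 and 0.0881% of all genes. Medians of the channels were 0.02, -0.26, -0.15 and -0.47 in interneurons, astrocytes, oligodendrocytes and microglia, against -0.08, -0.09, -0.05 and -0.10 over all genes. Kcnd2 in interneurons, lower in GF mice in Hip and higher in PFC, differed by -1.23 on the log2 scale (Hip minus PFC, SE 0.193, adjusted p = 6.35e-05 by edgeR). Kcnn2 in astrocytes, higher in GF mice in both regions, differed by -0.47 (SE 0.194, adjusted p = 0.0729 by edgeR), which did not pass, but did without SPF mouse 32 or CGF mouse 18. Depth and the GF group cannot be told apart in PFC.

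Partners of potassium channels outside the family were read from the same fits: Dpp6 and Dpp10 with Kv4, Amigo1 with Kv2, Lgi1, Adam22, Cntnap2 and Cntn2 with Kv1 at axons, the sulfonylurea receptors Abcc8 and Abcc9 with Kir6, the pacemaker channels Hcn2, Hcn3 and Hcn4, and Kcnrg, a regulator of Kv assembly. Of these 13 genes, rises and falls in GF against SPF mice in Hip were 2 and 5 of 11 tested in dentate granule, 2 and 4 of 11 in CA1 pyramidal and 2 and 4 of 11 in CA3 pyramidal neurons. They were 2 and 4 of 11 in interneurons, 1 and 4 of 11 in astrocytes, 1 and 4 of 10 in oligodendrocytes and 1 and 4 of 6 in microglia. In PFC they were 4 and 3 of 12 in upper-layer and 4 and 3 of 11 in layer 6 neurons, and 3 and 2 of 11 in interneurons. Over all genes, 15.1 to 23.9% rose and 10.6 to 22.2% fell in these Hip types, and 26.1 to 29.4% rose and 24.9 to 28.5% fell in these PFC types. Dpp6, the Kv4 partner, measured 676, 685 and 705 CPM in GF against 899.9, 877 and 927 CPM in SPF mice (log2 fold change -0.56, SE 0.0703, adjusted p = 0.000244) in CA1 pyramidal neurons. Hcn2 rose in 4 neuron types of Hip by log2 fold changes of 0.70 to 0.80. In CGF against SPF mice 0 of 138 tests of these genes were called by edgeR, with 9 at an unadjusted p under 0.05, and 0 by DESeq2, against 0.379% of the tests of all genes in Hip and 0.153% in PFC.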

How the data were processed

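Nuclei of Hip and PFC were captured in droplets and sequenced, and the authors deposited 1 table of UMI counts per mouse and region, raw and not normalized, made with Cell Ranger 3.1.0 per the file headers. The labels name conflicting kit versions. CASAVA 1.8 and mm10 are named in the submitters' processing notes, and whether reads in introns were counted is not given in the sources used here.

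Nuclei with at least 200 genes and at most 10% mitochondrial UMIs were kept (138000 nuclei). Types were gated on summed UMIs of marker genes, with thresholds set after looking at the scores, no channel among the markers and 8567 likely doublets kept except in an alternative. Sums of UMIs were formed for each mouse and type, 3 mice per group, and the mouse was the replicate. Nothing says that mice came from separate litters or cages, so the p-values measure the spread between these mice. Tests used edgeR 4.0.16 (quasi-likelihood, filterByExpr, TMM; R 4.3.3, limma 3.58.1) over all genes with the 3 groups in 1 fit, and p-values were adjusted by Benjamini-Hochberg with a threshold of 0.05. DESeq2 1.42.0, no TMM factors, no filter, removal of the trend with span and GC content, thinning, a stricter gate, doublets removed, fewer groups, a block for the mouse and leaving out each mouse were alternatives. Fits were tested on simulated data. Python 3.11.15 with numpy 2.4.6, pandas 2.3.3, scipy 1.17.1 and matplotlib 3.10.9 did the rest.

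Regions and types came from the same animals, so mouse numbers pair the samples. Deviations from the group means of the same mouse correlated at -0.0686 to 0.144 between the regions in interneurons, 0.00462 to 0.132 in astrocytes, 0.0168 to 0.154 in oligodendrocytes, 0.0185 to 0.11 in microglia and -0.112 to 0.145 in mural cells, at 0.269 to 0.493 between dentate granule and CA1 pyramidal neurons, 0.0371 to 0.226 between Pvalb and Sst interneurons and 0.185 to 0.33 between upper-layer and layer 6 neurons. Limits given for a count of 0 use 3 counts and cover counting error only.

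Gene spans are from GENCODE vM21 (30843 of 30905 genes, 99.8%). Members and gene lists were chosen with earlier results of these data known. Genes named are textbook channels of a type or complex, the 3 channels per type with the largest absolute log2 fold change among those called without overlap of GF and SPF mice, the 5 per direction in each comparison of types, the 3 with the same sign in all groups between regions, and the 3 most like Kcnj10, Kcnj8 and Kcnc1. Some genes that these rules name are not reported here. Kcnk12, Kcnj1, Kcnmb1, Kcnq1ot1 and Kcnd1 in microglia, and the genes called in CGF against SPF, were named after their values were seen. Where genes of opposite strands overlap, reads of either may be counted for both unless the counting used strand, which was not tested.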

Additional observations from a re-analysis of the deposited data

Results flagged for a closer look

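The GF against SPF difference was compared between Hip and PFC by a test of the difference itself, with edgeR's quasi-likelihood test and adjustment over all genes. It differed for 27 of 72 channel genes tested in interneurons, 18 of 68 in astrocytes, 13 of 58 in oligodendrocytes and 11 of 47 in microglia, against 37.0, 29.2, 16.7 and 8.31% of all genes. Single genes are given where each group of both regions held over 3 UMIs, which left out Kcnj13 in interneurons, Kcnd1 in oligodendrocytes, and Kcnq1 and Kcnf1 in microglia, all 4 of them in these counts. Kcnq1 had log2 differences (Hip minus PFC) of -4.41 in interneurons, -4.03 in astrocytes and -3.71 in oligodendrocytes. Of the channels so given, the next largest differences were those of Kcnh2 at 1.70 and Kcnu1 at 1.43 in interneurons, Kcna1 at -1.90 and Kcnmb2 at -1.70 in astrocytes, and Kcnc2 at -1.96 and Kcnt2 at -1.86 in oligodendrocytes. In microglia the largest were those of Kcnk1 at -2.67, Kcnc2 at -2.28 and Kcna1 at -2.27. None of these 3 genes was above excitatory neurons in all 9 mice in PFC microglia. Excitatory markers there stood at 47.8 to 51.4% of their level in excitatory neurons in GF and at 27.2 to 47.0% in SPF mice. The part of RNA from neurons and of depth in these differences was not tested.

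Nuclei of choroid plexus epithelium in Hip were too few for the ranking in every mouse and carried high levels of 2 channel genes. Kcne2, an auxiliary subunit known from the choroid plexus, was 173-fold and Kcnj13 33.2-fold higher in choroid plexus epithelium than in the other ranked types together. These folds compare sums of UMIs and have no test.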

How the results depend on the processing

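Of 496 values of 32 counts under alternative settings, 422 were within 1.5 times the reported count and 74 were not. For 143 tests of named channel genes, 2012 of 2189 values kept direction and side of the threshold, 161 lost the call, 7 gained one and 9 changed sign, and 0 of 86 levels moved by over 1 SD. The 9 were log2 fold changes of GF against SPF in Hip. That of Kcnip4 in CA1 pyramidal neurons was 0.15 after removal of the trend with span and GC content. That of Kcna1 in oligodendrocytes was -0.56 after this removal, -0.023 without TMM factors, -0.0097 without the filter and -0.06 to 0.13 with 1 mouse left out, and that of Kcnj10 in astrocytes was -0.26 to 0.10 with 1 mouse left out. Removal of the trend with span and GC content gave 14 calls of GF against SPF in place of 25 in CA1 pyramidal neurons, 11 in place of 22 in Hip interneurons, 14 in place of 26 in Hip astrocytes, 16 in place of 26 in PFC astrocytes and 3 in place of 5 in PFC microglia, and 2 in place of 4 of CGF against SPF in Hip. Restricting glia to genes above excitatory neurons in all 9 mice, an alternative chosen after seeing the data, gave 2 calls in astrocytes, 2 in oligodendrocytes and 0 in microglia of Hip, and 3, 1 and 0 in PFC. Thinning to the smallest total gave 6 calls in PFC oligodendrocytes, 0 in microglia and 0 in mural cells. PFC microglia had 3 calls by DESeq2, 3 without TMM factors, 10 with GF and SPF mice only and 1 with a stricter gate. CGF against SPF gave 9 calls in Hip by DESeq2 and 7 without TMM factors, and in PFC 1 without TMM factors and 0 with CGF and SPF mice only. Without a filter on low counts it gave 11 in Hip and 11 in PFC, PFC mural cells had 3 calls, and genes called alike in all groups between regions numbered 8 in astrocytes and 0 in microglia. In microglia that last count was also 0 by DESeq2 and 0 without TMM factors, and DESeq2 gave 6 differences of GF against SPF between regions in place of 11. With the replicate block, which used the pairing by mouse, genes called alike numbered 4 in oligodendrocytes and 2 in microglia, and no other count moved by over 1.5 times.

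Leaving out 1 mouse gave, for GF against SPF in Hip, 23 to 28 calls in dentate granule, 17 to 27 in CA1 and 24 to 30 in CA3 pyramidal neurons, 14 to 25 in interneurons, 16 to 27 in astrocytes, 15 to 23 in oligodendrocytes, 15 to 18 in microglia and 0 to 0 in mural cells. In PFC it gave 39 to 49 in upper-layer and 29 to 36 in layer 6 neurons, 28 to 36 in interneurons, 18 to 27 in astrocytes, 12 to 17 in oligodendrocytes, 1 to 7 in microglia and 0 to 4 in mural cells. CGF against SPF gave 1 to 5 in Hip and 0 to 4 in PFC, and GF against CGF gave 141 to 181 and 141 to 159. Genes called alike between regions numbered 2 to 8 in interneurons, 3 to 5 in astrocytes, 1 to 3 in oligodendrocytes and 0 to 1 in microglia, and differences between regions numbered 20 to 28, 13 to 19, 7 to 15 and 5 to 12. The 3 comparisons of types gave 48 to 50, 33 to 37 and 49 to 54 calls. The cause of these moves was not tested. Mural cells held 11 to 82 nuclei per mouse, and 2855 genes were tested there in Hip and 2524 in PFC, against 15081 in CA1 pyramidal neurons.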

Other observations

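Choroid plexus epithelium of Hip comprised 766 nuclei in 7 of the 9 mice, with 3673373 UMIs in all. Kcne2 had 291 UMIs there, or 79.2 CPM against 0.458 CPM in the other ranked types. Kcnj13 had 816 UMIs, or 222 CPM against 6.69 CPM. Both genes were counted in all 7 libraries with such nuclei, whereas Kcnj16 had 5 UMIs and Kcnk6 had 0, which allows a level of up to 3 counts in this total.

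Ependymal cells of Hip, one of the ranked types, comprised 359 nuclei in 9 mice. Kcnn4 had 30 UMIs there, in 9 of 9 libraries, or 21.4 CPM against 0.127 CPM in the other types. The other types were summed, and most of their UMIs came from neurons. Against this sum Kcnmb1, a BK beta subunit, was 57.1-fold higher with 24 UMIs, although its mean over mice was 16.6 CPM in ependymal and 19.7 CPM in mural cells. Kcnk5 (TASK-2) was 24.6-fold higher with 17 UMIs, with a mean of 10.2 CPM in ependymal cells against 5.65 CPM in oligodendrocytes. Kcnj16 was 12.1-fold higher with 57 UMIs. Kcnj10 reached 95.5 CPM against 14.6 CPM in the other types.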
